A study of Mus musculus with 7 samples.

Results

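The Wnt and Fgf ligand genes of the mouse were examined in a pool of H3K4me1 CUT&Tag libraries from single zygotes. Members were the RefSeq protein-coding genes of chromosomes 1 to 19, X and Y whose symbols are Wnt or Fgf followed by a number, with an a or b where Wnt genes come in pairs. This gave 41 genes, 19 Wnt and 22 Fgf, among 21887 protein-coding genes. The rule used symbols and no measured value, but it was set with earlier results of these data known. The label of ligand holds for 37 of them. Fgf11, Fgf12, Fgf13 and Fgf14, the Fgf homologous factors, carry the family name but stay inside the cell, where they bind voltage-gated sodium channels. They are described apart from the other 18 Fgf genes.

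In this study each zygote gave both a CUT&Tag profile of 1 histone mark and its own transcriptome. CUT&Tag brings the Tn5 transposase to a mark with an antibody, and the fragments it cuts out are sequenced. Of the 7 samples, the 2 H3K4me1 batches are used here, both of untreated zygotes and each with the zygotes of 1 mouse, and the H3K27me3 and transcriptome samples were not used here. There is no control antibody and no second condition among the values below. The labels of the H3K4me1 batches give no strain, age or hormone schedule. Those of the H3K27me3 samples name B6D2F1/J females crossed to C57BL6/J males, with 5 IU of pregnant mare serum gonadotropin and 5 IU of human chorionic gonadotropin 46 to 48 h apart.

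Wnt proteins are lipid-modified ligands that bind Frizzled receptors with an Lrp or Ror co-receptor. Canonical Wnt ligands stabilise beta-catenin, which then works with Tcf and Lef factors at target genes, and other Wnt ligands act on cell polarity and movement. Most Fgf proteins are heparin-binding ligands of the tyrosine kinase receptors Fgfr1 to Fgfr4 and drive the Ras and MAP kinase pathway, and the endocrine Fgf proteins need a Klotho co-receptor. In the early mouse embryo these ligands are best known after the zygote stage: Fgf4 of the inner cell mass drives the primitive endoderm, and Wnt3 is needed for gastrulation. H3K4me1 is usually found at enhancers and beside active or poised promoters. It is a mark on chromatin and no measure of transcription.

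The table pooled both batches, and the labels tie no library to a batch. The pool held 14 libraries with 5000 or more fragments, 3 with names starting with 4 and 11 with names starting with 5, and 1404305 fragments in all. Depth ran over 7106 to 197312 fragments a library with a median of 96240. The pool is 1 sample, so no spread between samples can be had and no test between samples was made. A level below is the fragments per bp of a gene with 2.5 kb on each side, divided by the mean per bp of the autosomes, 5.62 fragments per 10 kb. Brackets hold exact Poisson 95% intervals, which cover counting error only, since fragments made by PCR without molecular identifiers need not be independent. A median of 15.1 fragments was expected per member at a level of 1, and 3 members, Fgf4, Fgf21 and Fgf22, had under 5 expected. Oocyte marker genes had a median level of 1.73, with 5 of 10 intervals above 1 and 0 below. Cumulus cell markers had a median of 0.977, with 3 of 10 above 1 and 2 below. Over all protein-coding genes 28.1% of intervals lay above 1 and 8.61% below, so the cumulus share above 1 was close to that of all genes. Removal of cumulus cells is stated for the H3K27me3 samples only, and the mark at a gene does not show that the gene is transcribed.

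Promoter sequence is shown for 6 members that differ in level and in CpG content: Wnt1, Wnt4, Fgf6 and Fgf4 among the highest members and Fgf10 and Fgf13 among the lowest. Each line gives the 250 bases before the annotated start, 5′ to 3′ on the gene's strand, from RefSeq for GRCm38.p6, with every CpG in capitals.
Wnt1 (chr15:98789607-98789856, + strand): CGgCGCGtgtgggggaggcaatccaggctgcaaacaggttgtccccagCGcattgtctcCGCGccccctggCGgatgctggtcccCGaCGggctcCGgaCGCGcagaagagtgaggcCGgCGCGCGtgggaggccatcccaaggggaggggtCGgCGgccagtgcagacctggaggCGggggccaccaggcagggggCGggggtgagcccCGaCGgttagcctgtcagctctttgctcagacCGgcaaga
Wnt4 (chr4:137277385-137277634, + strand): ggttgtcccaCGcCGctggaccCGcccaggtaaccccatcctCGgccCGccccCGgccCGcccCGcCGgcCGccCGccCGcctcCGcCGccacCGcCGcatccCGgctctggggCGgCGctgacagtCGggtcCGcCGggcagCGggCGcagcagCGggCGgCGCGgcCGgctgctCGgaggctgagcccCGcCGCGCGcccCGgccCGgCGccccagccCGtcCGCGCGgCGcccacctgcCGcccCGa
Fgf6 (chr6:127015292-127015541, + strand): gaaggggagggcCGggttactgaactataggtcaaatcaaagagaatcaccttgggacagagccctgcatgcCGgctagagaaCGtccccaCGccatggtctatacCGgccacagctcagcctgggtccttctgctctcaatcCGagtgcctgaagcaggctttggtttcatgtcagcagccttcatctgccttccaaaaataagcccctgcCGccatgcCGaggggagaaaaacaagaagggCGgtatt
Fgf4 (chr7:144861136-144861385, + strand): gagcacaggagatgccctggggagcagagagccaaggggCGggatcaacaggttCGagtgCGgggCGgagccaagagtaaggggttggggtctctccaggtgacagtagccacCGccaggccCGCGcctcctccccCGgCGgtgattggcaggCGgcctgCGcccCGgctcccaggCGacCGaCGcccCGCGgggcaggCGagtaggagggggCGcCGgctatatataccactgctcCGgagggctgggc
Fgf10 (chr13:118714449-118714698, + strand): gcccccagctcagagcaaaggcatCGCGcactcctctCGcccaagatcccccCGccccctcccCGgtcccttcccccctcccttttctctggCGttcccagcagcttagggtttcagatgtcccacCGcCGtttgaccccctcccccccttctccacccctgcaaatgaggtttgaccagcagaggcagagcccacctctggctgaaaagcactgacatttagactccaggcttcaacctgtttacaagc
Fgf13 (chrX:59585573-59585822, - strand): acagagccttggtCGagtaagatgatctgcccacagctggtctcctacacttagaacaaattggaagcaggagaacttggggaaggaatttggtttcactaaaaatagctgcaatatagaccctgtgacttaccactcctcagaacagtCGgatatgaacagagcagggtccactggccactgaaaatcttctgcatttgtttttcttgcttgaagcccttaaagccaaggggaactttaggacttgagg
The upstream 250 bases held 23 CpG in Wnt1, 44 in Wnt4 and 21 in Fgf4. The same stretch held 9 CpG in Fgf6, 8 in Fgf10 and 2 in Fgf13. Each of the 4 high members shown thus had more CpG than both low ones, with Fgf6 and Fgf10 only 1 apart. This order held for the 6 picked genes and not over the members. Fgf3 (level 2.74) had 4 CpG and Fgf23 (2.35) had 6, while the low Wnt2 (0.612) had 20.

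Taken over all 41 members the mark was near the genome's mean. The members had a median level of 1.24 and ran over 0.209 to 3.01, and all protein-coding genes had a median of 1.18. No member was without a fragment. Intervals lay above 1 in 14 members, 34.1%, beside 28.1% of all protein-coding genes, and 12.4 members would have been counted at the shares of other genes in the same length classes. They lay below 1 in 6 members, 14.6%, beside 8.61% of all protein-coding genes, with 3.78 counted at the shares of the length classes. A level of 1.5 or more was reached by 17 members, 41.5%, beside 31.1% of all protein-coding genes, with 13.6 counted at the shares of the length classes.

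The families differed in how these counts were made up. Of the 19 Wnt genes, 9 had an interval above 1 and 1 below it, and 6.00 and 1.70 were the counts at the shares of their length classes. Of the 18 secreted Fgf genes, 5 lay above and 2 below, and the class shares gave 5.01 and 1.33. None of Fgf11 to Fgf14 lay above 1, and 3 of the 4 lay below it, where the class shares gave 1.40 and 0.745. Median levels were 1.43 over the Wnt genes, 1.23 over the secreted Fgf genes and 0.677 over Fgf11 to Fgf14.

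**Figure D1:**
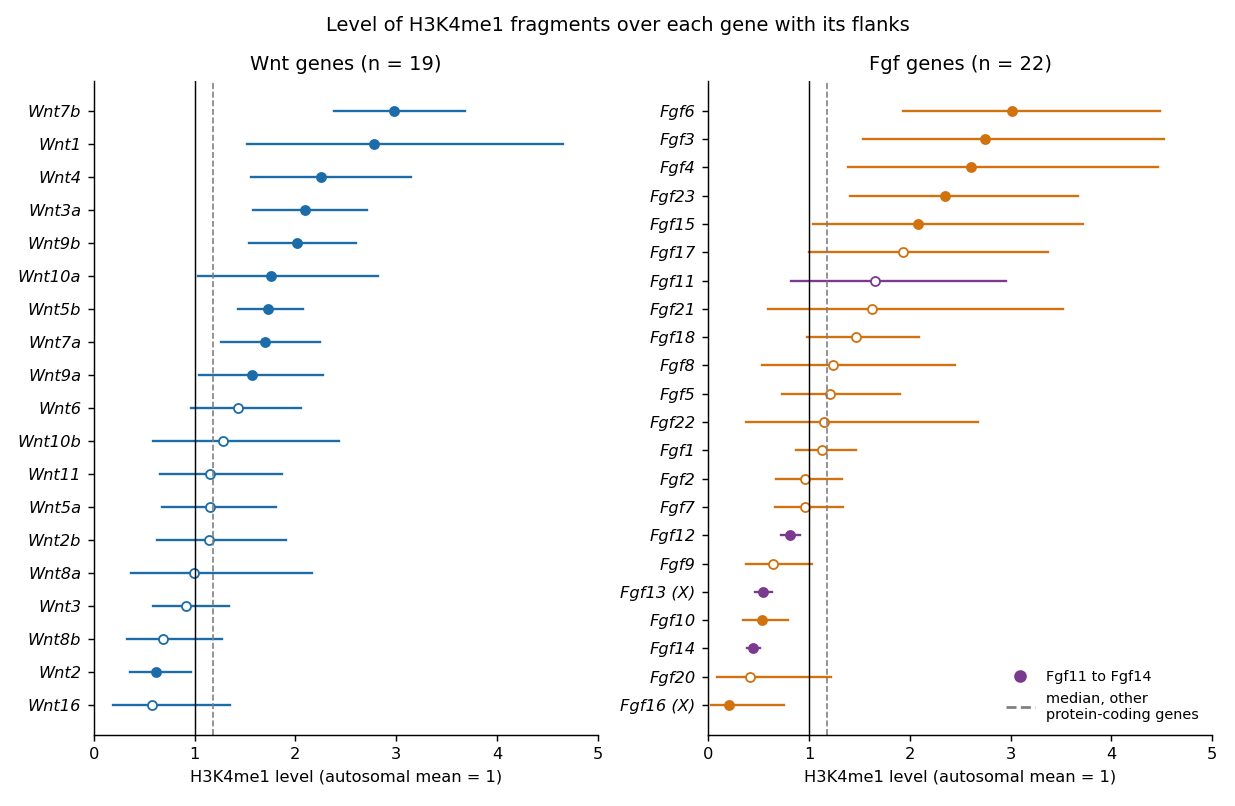
Level of each member with its exact Poisson 95% interval, Wnt genes on the left and Fgf genes on the right, on a linear axis where 1 is the autosomal mean. Filled points are the 20 genes whose interval leaves out 1, the dashed line is the median of the other protein-coding genes at 1.18, and X marks the 2 X-linked genes.

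Summed over the windows, the 609 Wnt fragments gave a level of 1.59 (1.46 to 1.72), against 1.15 for the other protein-coding genes. This was 1.27 times (1.17 to 1.37) what genes of the same length classes gave. The secreted Fgf genes summed to 1.11 (0.997 to 1.24) with 338 fragments, 0.865 times (0.775 to 0.962) the length-class value. Fgf11 to Fgf14 summed to 0.599 (0.552 to 0.647) with 622 fragments, 0.578 times (0.534 to 0.626) that of their classes. The class of Fgf12, Fgf13 and Fgf14 held other genes of 108544 to 2390387 bp, so the match in length is loose. Fgf13 also lies on the X chromosome, whose whole level was 0.554. Fgf11 to Fgf14 span most of the members' sequence. The sum over all 41 members, 0.909 (0.864 to 0.955), thus lay below 1, while the sum without these 4 genes was 1.38 (1.29 to 1.47).

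Among the 13 libraries with 20000 or more fragments the summed Wnt level was lowest at 1.31, had a median of 1.51 and was highest at 2.39. It was above that of the other protein-coding genes of the same library in 13 of 13, and the highest values came from libraries 5-9 and 4-2, with 28 and 42 Wnt fragments. The secreted Fgf genes ran over 0.651 to 1.62 with a median of 1.08 and were above the other protein-coding genes in 4 of 13 libraries. Fgf11 to Fgf14 ran over 0.431 to 0.805 with a median of 0.588 and were above them in 0 of 13. The Wnt sum was the higher of the pair in 12 of 13 libraries beside secreted Fgf, and in 13 of 13 beside Fgf11 to Fgf14. Libraries are single zygotes of an unknown split over 2 mice and are not replicates of a condition.

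**Figure D2:**
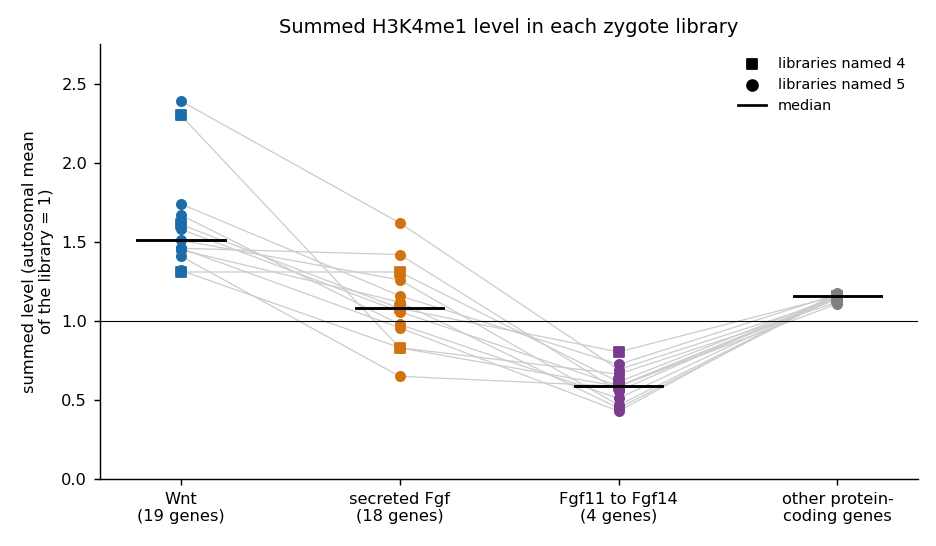
Summed level (linear axis, autosomal mean of the same library at 1) of the Wnt genes, the secreted Fgf genes, Fgf11 to Fgf14 and the other protein-coding genes in the 13 libraries with 20000 or more fragments, joined by library. Squares are libraries named 4, circles those named 5 and bars the medians, which were 1.51, 1.08, 0.588 and 1.16 from left to right.

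The sums were also taken apart by library name. The Wnt level was 1.70 (1.40 to 2.04) in the 3 named 4 and 1.56 (1.43 to 1.71) in the 11 named 5. For the secreted Fgf genes the values were 1.09 (0.829 to 1.41) and 1.12 (0.990 to 1.26), and for Fgf11 to Fgf14 they were 0.686 (0.572 to 0.816) and 0.580 (0.530 to 0.633). All 3 pairs of intervals overlapped. Taken gene by gene, 4 of 41 members had intervals above 1 in both sets, namely Wnt3a, Wnt5b, Wnt7b and Fgf4, beside 7.29% of all protein-coding genes. The intervals of the sets did not overlap in 1 of 41 members, Fgf13, beside 2.19% of all protein-coding genes. Both counts are near these shares.

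The canonical Wnt ligands, 15 genes, had a median of 1.43, and 7 intervals lay above 1, where the shares of their length classes gave 4.68. Wnt7b, a ligand of lung growth and of vessels in the brain, was the highest at 2.98 (2.38 to 3.68) from 86 fragments. Over the 13 libraries its level was 0 at the lowest, in 5-8, 2.49 at the median and 7.30 at the highest, in 5-2, and it was over 1 in 11. Its level stood above 99.4% of the other genes of its length class. It was also the only member whose window touched an enriched bin, a 10 kb stretch with at least 3 times the autosomal mean, 20 fragments and 5 libraries. Those bins lay side by side inside the gene (chr15:85550001-85560000 and chr15:85560001-85570000, mm10) at 3.74 (2.31 to 5.71) and 3.56 (2.17 to 5.50). Such a bin was touched by 2.44% of members and by 4.1% of all protein-coding genes.

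Wnt1, a ligand of the midbrain and hindbrain border and of neural crest, had a level of 2.78 (1.52 to 4.66) from 14 fragments, spread over 10 libraries with at most 2 in any of them. Library values were 0 at the lowest, 2.85 at the median and 8.34 at the highest, in 4-2. The gene itself held 4 of these fragments, a level of 1.79 (0.488 to 4.59), and the 2.5 kb after its end held 9, a level of 6.41 (2.93 to 12.2). Most fragments of Wnt1 thus lay beyond its end, and on 4 fragments the interval of its gene body held 1.

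Wnt3a, needed for paraxial mesoderm and somites, had 2.09 (1.58 to 2.71) from 56 fragments, with library values of 0, 2.01 and 5.95 at the lowest, median and highest. All of its 9 full steps of 5 kb held more than the 2.81 fragments expected. Wnt9b, which induces kidney tubules, had 2.02 (1.54 to 2.60) from 60 fragments, with 0, 1.81 and 5.51 over the libraries. Both genes were over 1 in most libraries, Wnt3a in 11 and Wnt9b in 10 of 13.

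Wnt7a, a dorsal signal of the limb bud, had 1.70 (1.26 to 2.24) from 50 fragments and library values of 0, 1.83 and 3.81. Wnt10a, a ligand of teeth and hair, had 1.76 (1.03 to 2.82) from 17 fragments with 0, 1.38 and 9.95, and 7 of the 17 came from library 4-5. Without that library its level was 1.12 (0.536 to 2.06). Its interval also reached below 1 without library 4-2 (1.74), 5-9 (1.71) or 5-10 (1.61). Wnt9a, which acts in forming joints, had 1.57 (1.04 to 2.27) from 28 fragments, with 0, 1.48 and 3.77. Its interval reached below 1 without library 4-2, 5-1, 5-4, 5-6 or 5-7, at levels of 1.43 to 1.52. The other 5 canonical genes above 1 stayed above it without each library in turn.

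The lowest Wnt genes were canonical too. Wnt2, a lung and placenta ligand, had 0.612 (0.363 to 0.968) from 18 fragments, with 0, 0.681 and 2.23 over the libraries, and it was over 1 in 2 of 13. Its interval reached above 1 without library 4-2, 4-4, 5-2, 5-3, 5-5 or 5-6, at levels of 0.619 to 0.662. Wnt16, a ligand of cortical bone, had 0.580 (0.188 to 1.35) from 5 fragments in 5 libraries, with library values of 0, 0 and 2.60. For Wnt8b, a forebrain ligand, the level was 0.690 (0.331 to 1.27) with library values of 0, 0 and 4.77, and 4 of its 10 fragments came from library 4-4. Without that library its level was 0.439 and the interval lay below 1. The remaining canonical genes, Wnt2b, Wnt3, Wnt6, Wnt8a and Wnt10b, ran over 0.911 to 1.43 with intervals that held 1. Of these, Wnt6 had an interval above 1 without library 4-2, 4-4 or 5-1, at up to 1.52.

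Of the 4 Wnt genes that often act without beta-catenin, 2 lay above 1, where the shares of their length classes gave 1.32. Wnt4, needed for kidney tubules and the female gonad, had 2.25 (1.56 to 3.15) from 34 fragments, and its library values were 0, 2.07 and 5.93. It was over 1 in 11 of 13 libraries, and the 250 kb on each side of it stood as high, at 2.28 (2.11 to 2.46). Wnt5b, a ligand of cartilage, had 1.73 (1.43 to 2.08) from 114 fragments in all 14 libraries, with 0.340, 1.52 and 4.79 over the 13. Wnt5a, a signal of limb and body axis outgrowth, and Wnt11, which acts in kidney branching, both had 1.15, with intervals of 0.680 to 1.81 and 0.660 to 1.87.

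Among the secreted Fgf genes the 5 above 1 came from 2 stretches of chromosomes 6 and 7. Fgf6, a growth factor of skeletal muscle, was the highest member of all at 3.01 (1.93 to 4.48) from 24 fragments. Its library values were 0, 2.17 and 6.25, with 4 of 13 libraries at 0 and the other 9 over 1. Fgf23, the phosphate hormone of bone, lies in the same stretch and had 2.35 (1.41 to 3.67) from 19 fragments, with 0, 2.66 and 6.19. Fgf6 stood at 2.14 times the level of its own surroundings and Fgf23 at 1.58 times.

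Fgf3, Fgf4 and Fgf15 are neighbours on chromosome 7. Fgf3, a signal for the inner ear, had 2.74 (1.53 to 4.52) from 15 fragments, with library values of 0, 3.03 and 8.19. Fgf4 had 13 fragments where 4.98 were expected, a level of 2.61 (1.39 to 4.46), with 0, 1.67 and 8.26 over the libraries. Only 2 of the 13 fell inside the gene, a level of 0.922 (0.112 to 3.33), and the flanks together held the other 11 at 3.91 (1.95 to 7.0). Fgf15, the intestinal signal that restrains bile acid synthesis in the liver, had 2.08 (1.04 to 3.72) from 11 fragments, with 0, 0 and 5.91. Its interval reached below 1 without library 4-2, 5-3, 5-4, 5-5 or 5-10, at levels of 1.68 to 2.04.

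The other endocrine gene, Fgf21, a hormone of the fasting liver, had 6 fragments in 6 libraries where 3.71 were expected, a level of 1.62 (0.593 to 3.52). All 3 endocrine genes thus had levels of 1.5 or more, and 2 of them had intervals above 1. The shares of their length classes gave 1.14 and 0.626. Fgf22, a factor of synapse formation, had 5 fragments where 4.35 were expected, at 1.15 (0.373 to 2.68). The Fgf8 group, Fgf8, Fgf17 and Fgf18, which act at signalling centres of the brain, limb and skeleton, had 1.24, 1.93 and 1.46, and their intervals held 1. The interval of Fgf17 lay above 1 without library 4-2, 4-4, 5-1, 5-5, 5-9 or 5-11, at 1.94 to 2.09, and that of Fgf18 without 5-2 (1.58), 5-3 (1.56) or 5-7 (1.53). Fgf5, which ends hair growth, and the broadly acting Fgf1, Fgf2 and Fgf7 ran over 0.954 to 1.21 and also had intervals holding 1.

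Fgf10 and the Fgf9 group formed the low end of the secreted genes. Fgf10, needed for lung and limb buds, had 0.537 (0.347 to 0.792) from 25 fragments, with library values of 0, 0.356 and 1.86, and it was over 1 in 2 of 13. Its surroundings were as low, at 0.445 (0.370 to 0.530), and held 1 other protein-coding gene within 500 kb. Fgf9, a factor of lung and testis, had 0.641 (0.373 to 1.03) beside surroundings at 1.28 (1.16 to 1.42), and its interval lay below 1 without library 5-4 (0.482) or 5-11 (0.568). Fgf20, of the inner ear and kidney, had 0.417 (0.0861 to 1.22) from 3 fragments in 3 libraries, with 0, 0 and 4.56 over the 13. Fgf16, of the heart, had 2 fragments in 2 libraries where 9.59 were expected at the autosomal mean, a level of 0.209 (0.0253 to 0.754), with 0, 0 and 1.37.

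Fgf16 and Fgf13 lie on the X chromosome, whose whole level was 0.554. Against the mean of the X, Fgf16 was at 0.377 (0.0456 to 1.36) and Fgf13 at 0.979 (0.834 to 1.14). Neither interval then left out 1, so that their place below 1 holds on the autosomal scale alone. The sexes of the zygotes were not used here, and the part that the number of X chromosomes plays in these levels was not tested.

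Of the intracellular Fgf genes, 3 are very long and lay below the autosomal mean. Fgf14, a regulator of sodium channels in neurons, spans 703246 bp and had 176 fragments where 398 were expected, a level of 0.442 (0.379 to 0.512). It ran over 0.132 to 0.824 in the 13 libraries with a median of 0.434 and was over 1 in none of them. Its level stood above that of 1.92% of the other genes of its length class, the longest one, which starts at 108544 bp. Of its 141 steps of 5 kb, 24 held more than expected. The 250 kb on each side stood at 0.865 (0.759 to 0.981), so that the gene lay below its surroundings.

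Fgf13, which also binds microtubules, had 0.542 (0.462 to 0.633) from 161 fragments over 523434 bp, with library values of 0.168, 0.582 and 1.06. Library 5-4 gave 44 of them. In the libraries named 4 its level was 0.812 (0.588 to 1.09), and in those named 5 it was 0.483 (0.400 to 0.579). Fgf12 was the nearest of the 3 to the mean at 0.812 (0.719 to 0.914) from 274 fragments over 595461 bp, with 0.564, 0.696 and 1.34 over the libraries. Fgf11 is short, 6877 bp, and had 1.65 (0.823 to 2.95) from 11 fragments in a stretch with 63 other protein-coding genes within 500 kb. Fgf11 was thus the only one of the 4 with a level over 1, and its interval held 1.

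A member's level went with that of its surroundings. Over the 41 members the level of the gene window and that of the 250 kb on each side had a Spearman rho of 0.738, with 0.649 over Wnt and 0.796 over Fgf genes, and the 21648 other protein-coding genes with a value for both gave 0.634. These are descriptions across genes of the same libraries, and members of 1 stretch share most of their surroundings. The level also went with gene density, counted as the protein-coding genes within 500 kb, at a rho of 0.550 over the members and 0.258 over the others. With gene length the rho was -0.384 over the members and 0.0831 over the others. The families differed in sign here, with 0.195 over Wnt and -0.630 over Fgf genes. The 10 members with the fewest neighbours, at most 6, had a median level of 0.712, against 0.944 for other genes of that density. The 11 members with 6 to 12 neighbours had 1.14, against 1.10, and the 10 with 12 to 19 had 2.16, against 1.26. The single member with 19 to 31 neighbours, Fgf17, had 1.93, against 1.37. The 9 members with 31 or more had 1.62, against 1.41, so that the members' medians did not rise through all 5 groups as those of other genes did.

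Members lay on both sides of the level of their surroundings. The gene window was higher than the 250 kb on each side in 19 of 41 members, 46.3%, against 50.5% of all protein-coding genes. It was so in 10 of 19 Wnt genes, 9 of 18 secreted Fgf genes and 0 of Fgf11 to Fgf14. Wnt1 and Wnt7b stood at 1.75 and 1.70 times their surroundings. Wnt8b, at 0.442 times, and Fgf9, at 0.499 times, were low genes in stretches above 1.

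**Figure D3:**
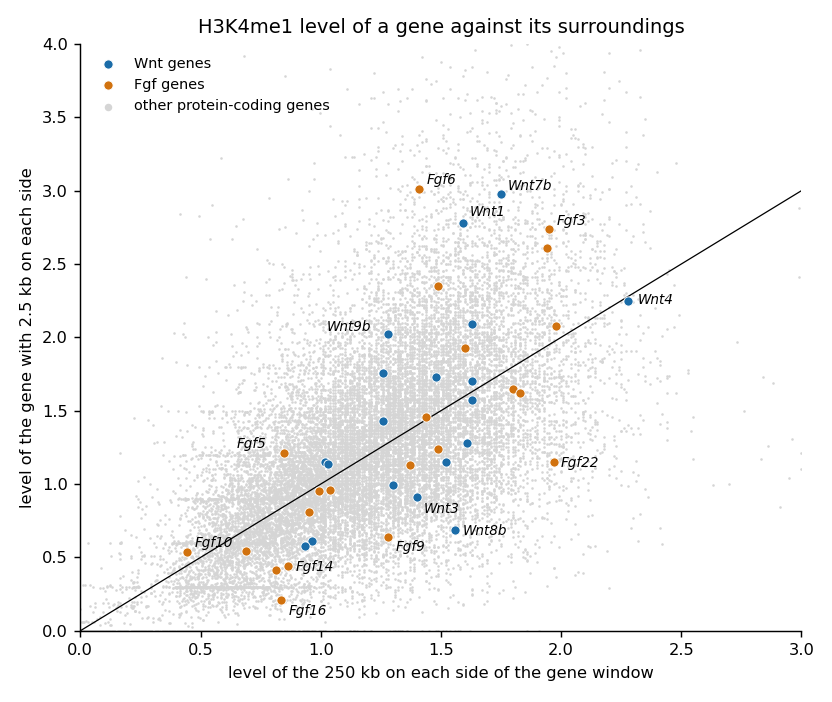
Level of each gene with 2.5 kb on each side against the level of the 250 kb beyond on each side, on linear axes where 1 is the autosomal mean, with Wnt genes in blue, Fgf genes in orange and the other protein-coding genes in grey (44 of these lie outside the axes). Points above the line exceed their surroundings, as Fgf6 (2.14 times), Wnt1 and Wnt7b do, and Wnt8b, Fgf9 and Fgf16 lie below it.

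There are 6 places where members are neighbours, and in each the whole stretch was above 1. Each stretch holds at least 1 member whose own interval lay above 1, so this count partly repeats those calls. The 250 kb on each side of these members also stood above 1, at 1.26 to 1.98. No share of like stretches among other genes was counted. The stretch of Fgf3, Fgf4 and Fgf15 with flanks (67.3 kb) had 99 fragments and a level of 2.62 (2.13 to 3.18), and the sequence between the genes stood at 2.74 (2.16 to 3.43). It was over 1 in 10 of 13 libraries. The genes of this stretch were therefore no higher than the sequence between them. The stretch from Fgf6 to Fgf23 had 2.03 (1.62 to 2.52), with 1.66 (1.21 to 2.22) between the genes, and was over 1 in 12 of 13 libraries.

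The 4 Wnt pairs had lower values than Fgf3 to Fgf15, but not all intervals were apart. Those of Wnt10b to Wnt1 and Wnt6 to Wnt10a overlapped that of Fgf3 to Fgf15 (2.13 to 3.18). That of Wnt3a to Wnt9a ended where it began. Wnt10b to Wnt1 had 1.83 (1.23 to 2.64), Wnt3a to Wnt9a 1.73 (1.39 to 2.13) and Wnt6 to Wnt10a 1.65 (1.23 to 2.18). The short gap between Wnt6 and Wnt10a held 11 fragments, a level of 2.92 (1.46 to 5.23). The gap between Wnt3a and Wnt9a held 10 at 1.11 (0.530 to 2.03).

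Wnt9b and Wnt3 form the last pair, at 1.56 (1.25 to 1.93) for the stretch. The genes overlap by 1098 bp, and fragments there cannot be given to one or the other, but the windows shared 1 fragment only. Wnt9b stood at 2.02 (1.54 to 2.60) and Wnt3 at 0.911 (0.589 to 1.34), so that these neighbours had intervals that did not overlap. In the libraries named 5 the values were 2.13 (1.59 to 2.79) and 0.798 (0.473 to 1.26). In the libraries named 4 they were 1.51 (0.652 to 2.97) and 1.43 (0.575 to 2.95), which overlap, on 8 and 7 fragments.

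**Figure D4:**
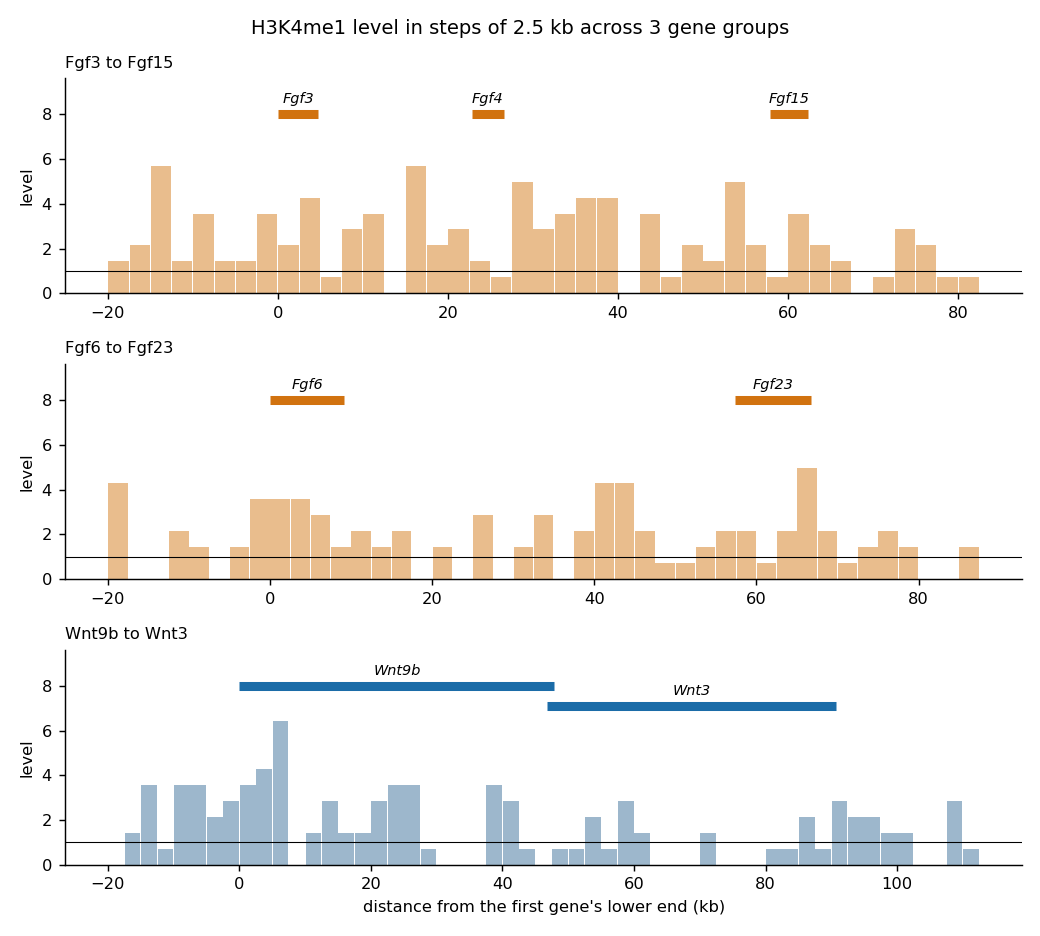
Level in steps of 2.5 kb (linear axis, autosomal mean at 1) across 3 stretches with neighbouring members, by distance from the lower end of the first gene, with genes drawn as bars above. Fragments are spread over the Fgf3 to Fgf15 stretch, with 0 to 8 in a step, while in the lowest panel the steps over Wnt9b are mostly taller than those over Wnt3.

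For 31 members, 15 Wnt and 16 Fgf, the promoter table gives a strand and a start. The parts compared here were cut at the outer bounds of the annotated gene. The start in the promoter table can lie inside these, by 17550 bp in Wnt6 and 25451 bp in Wnt9b. The flank after the gene's end was the richest part of the Wnt genes. Their 2.5 kb after the end had a level of 2.32 (1.72 to 3.07) from 49 fragments, their genes 1.46 (1.32 to 1.61) and their 2.5 kb before the start 1.04 (0.654 to 1.58). All protein-coding genes with a start had 1.27, 1.15 and 1.05 for the same parts, in the same order. The 12 secreted Fgf genes had 1.48 (0.960 to 2.19) after the end, 1.05 (0.903 to 1.21) in the gene and 1.54 (1.01 to 2.26) before the start. Wnt1 gave 9 of the 49 fragments after Wnt genes.

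**Figure D5:**
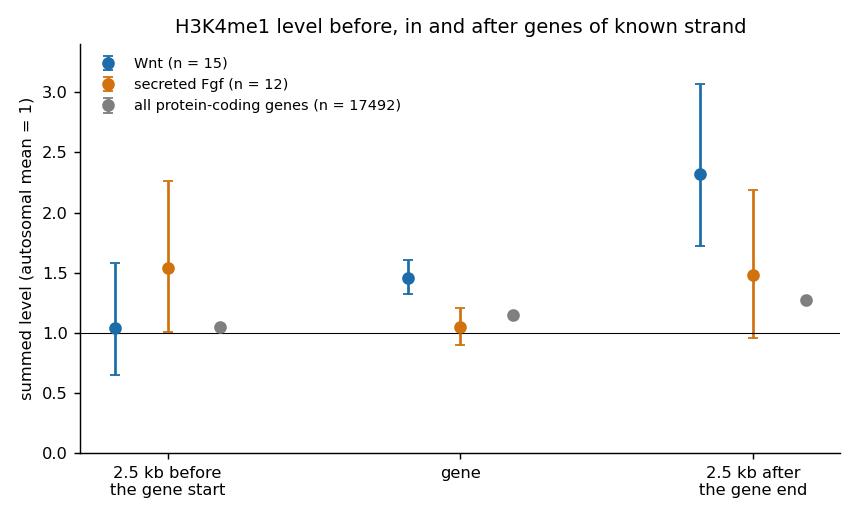
Summed level (linear axis, autosomal mean at 1) in the 2.5 kb before the start, in the gene and in the 2.5 kb after the end, for 15 Wnt genes, 12 secreted Fgf genes and all 17492 protein-coding genes with a known strand, with exact Poisson 95% intervals as bars. Start and end are the outer bounds of the annotated gene. The Wnt genes are highest after the end (2.32) and at the level of all genes before the start (1.04 against 1.05).

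By the median, the promoters of Wnt genes held more CpG than those of Fgf genes, with ranges that overlapped. The 250 bases before the start in the promoter table held a median of 28 CpG in 15 Wnt genes, from 5 to 48. In 16 Fgf genes, Fgf11 to Fgf14 among them, the median was 9, from 2 to 37. All protein-coding genes had a median of 10. The sequence GGGCGG on either strand, a site that Sp factors can bind, was present in 22 of 31 members, 71.0%, against 42.7% of all promoters. TATAAA was present in 6.45% of members and in 12.4% of all promoters. CTTTGAT, a core that Tcf and Lef factors can bind, was present in 2 of 31 members, Fgf6 and Wnt11, 6.45% against 2.89% of all. These are matches of letters in this window and no measured sites.

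Levels around the starts were near the mean. Within 1 kb on each side of the start in the promoter table, the 31 members had 42 fragments, and 11 members had none. Their level was 1.20 (0.868 to 1.63), against 1.06 in all protein-coding genes. The 16 members with 20 or more CpG, such as Wnt1, Wnt4 and Fgf4 printed above, had 1.00 (0.593 to 1.58). The 15 with fewer had 1.42 (0.912 to 2.12), and these intervals overlap. In all protein-coding genes the same split gave 0.964 (0.935 to 0.993) with 20 or more CpG and 1.09 (1.07 to 1.10) with fewer. At the depth of this pool, 42 fragments over 31 starts, a difference between the members' starts of the size seen over all genes was not detectable.

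Fragment lengths in members were close to those of other genes. They had a median of 329.5 bp over the members, with 7.65% (6.39 to 9.08, exact Clopper-Pearson) under 150 bp, against 321 bp and 8.60% (8.53 to 8.66) over the other protein-coding genes. In Fgf11 to Fgf14 the median was 342 bp and 5.63% (3.95 to 7.74) were under 150 bp. The shares were 9.21% in Wnt and 8.58% in secreted Fgf genes.

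The pathway lists hold genes that act with these ligands, and their counts are read beside the 28.1% of all protein-coding genes above 1 and 8.61% below. Of 16 receptors and co-receptors 6 had intervals above 1 and 0 below, with a median of 1.31. The highest was Fzd4, a Frizzled of the retinal vessels, at 2.32 (1.27 to 3.89), and the lowest was Fzd7 at 0.363 (0.0439 to 1.31) from 2 fragments. All 3 genes of Wnt maturation and removal lay above 1: Notum, which strips the lipid from Wnt, at 2.58 (1.53 to 4.08), Wls at 1.86, the median of the 3, and Porcn, which attaches the lipid, at 1.81 (1.07 to 2.86) on an X chromosome at 0.554. Of 20 genes of the cytoplasm and nucleus 10 lay above 1 and 0 below, with a median of 1.44. Dvl1, which relays the signal from Frizzled, was the highest at 2.84 (1.87 to 4.14), and the kinase gene Gsk3a the lowest at 0.853 (0.343 to 1.76).

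The secreted and membrane modulators of Wnt were mixed. Of these 22 genes 5 lay above 1 and 2 below, with a median of 1.28. Sfrp5, a secreted Wnt antagonist, was the highest at 3.26 (1.90 to 5.22), and Lgr5, a receptor for R-spondins and a stem cell marker, the lowest at 0.687 (0.517 to 0.894).

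In the Fgf pathway 2 of 7 receptors and co-receptors lay above 1 and 0 below, with a median of 1.23. Fgfr4, the liver receptor for Fgf15, had 2.12 (1.37 to 3.14), and Kl, the Klotho co-receptor of Fgf23, had 0.693 (0.411 to 1.10). Of 20 modulators and signalling genes 7 lay above and 2 below, with a median of 1.17. The adaptor gene Grb2 had 2.00 (1.58 to 2.49). Spry3, an antagonist of receptor tyrosine kinases on the X, had no fragment, with an interval of 0 to 0.451. A limit of 3 counts, usual for a count of 0, is a level of 0.367. The 250 kb on each side of Spry3 had no fragment either. Whether fragments can be placed in that region was not tested, so this 0 is not read as a low level of the mark. Spry3 is 1 of the 2 genes counted below 1.

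Hox and Forkhead genes were counted in the same way as further developmental regulators. The 39 Hox genes, which pattern the body axis, had a median of 0.959, with 2 intervals above 1 and 1 below. The 44 Forkhead genes had a median of 1.20, with 15 above and 2 below. The share above 1 was thus 47.4% in Wnt, 27.8% in secreted Fgf, 34.1% in Forkhead and 5.13% in Hox genes, beside 28.1% of all protein-coding genes. Hox genes are short, and at the shares of their length classes 7.88 of the 39 would have been counted above 1.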

How the data were processed

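H3K4me1 fragments of single zygotes were taken from the table deposited by the authors, which lists 1 fragment per line with its position and library; its last column is a count of 1 in all lines, so fragments were counted here per region as deposited. The submitters' processing notes name the build mm10. For alignment, duplicates, filters and cut-site shifts, the steps taken were not given in the sources used here. Repeated PCR copies, if kept, would make the intervals too narrow, and the deposited table held 5 repeated lines among 1424363. Gene positions were those of RefSeq on GRCm38.p6, which mm10 is built on. Of 16 libraries, 14 reached 5000 nuclear fragments and were pooled, 7106 to 197312 fragments each, and library values used the 13 with at least 20000. A fragment was placed by its midpoint. Genes were split by length into 10 classes, and expected counts came from all other genes of a class.

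Members and lists were chosen with earlier results of these data known. Library values were given for members whose interval leaves out 1 and for the 3 highest and 3 lowest of each family with at least 5 fragments expected, and in pathway lists the highest and lowest gene was named. The design gives 1 pooled sample, so no test was made. The counting was tested on simulated data. Alternatives covered flanks, library depth and weight, fragment position, stacked fragments, each library, the scale and the choice of members. Python 3.11.15, numpy 2.4.6, pandas 2.3.3, scipy 1.17.1 and matplotlib 3.10.9 were used.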

Additional observations from a re-analysis of the deposited data

How the results depend on the processing

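No paired analysis was possible because both batches are pooled in 1 table and no result comes from a test between groups. Among the alternative values of the summary results, 301 stayed within the interval of the main value, or within 1.5 times for a count. Another 12 moved further and 3 called values turned direction. The interval was the counting interval for a sum or ratio, and for a median a wider binomial interval across genes. Within the 301, the Fgf median level, 1.18, crossed 1 over gene bodies alone (0.993) and in the libraries named 4 alone (0.926). In the libraries named 4 alone the summed level of the members was 0.981, the ratio to the length classes 0.875 and that of Fgf11 to Fgf14 0.680, and 6 members lay above 1, 5 of them Wnt genes, and 1 below. Fewer fragments widen those intervals. On the mean of each gene's own chromosome the sum was 1.02, which turns its direction. The ratios there were 0.883 for members and 0.699 for Fgf11 to Fgf14, and 3 members lay below 1. Wnt2, Fgf13 and Fgf16 were no longer below 1 on that scale. Wnt9a and Fgf15 were no longer above 1, and Wnt6 and Fgf17 came to lie above it. Without Fgf11 to Fgf14 the sum was 1.38 and the ratio 1.09, both turning direction, with 3 members below 1. The autosomal members alone, an alternative added after seeing the data, gave a sum of 0.990 and a ratio of 0.864. Some results were not planned either. They were the length-class ratios of the Wnt, secreted Fgf and Fgf11 to Fgf14 genes and the count of Wnt members above 1. The level of Fgf4 over the gene body alone was 0.922, which also turns. Of the 14 members above 1 and the 6 below, 11 and 5 kept their place without each library in turn. The exceptions were Wnt9a, Wnt10a, Fgf15 and Wnt2. With libraries weighted equally there are no counts behind an interval, so no count of members above or below 1 was made. Depth limits the short genes most: 3 members had under 5 fragments expected.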
